A study of Bos taurus with 6 samples.

Results

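The small leucine-rich proteoglycans are secreted proteins of the extracellular matrix, and the 7 described here are decorin (DCN), lumican (LUM), biglycan (BGN), fibromodulin (FMOD), osteoglycin (OGN), asporin (ASPN) and the proline- and arginine-rich end leucine-rich repeat protein (PRELP). They were taken by gene symbol: every probe set of the array whose platform annotation names exactly 1 gene, that gene being one of the 7. All 7 genes were on the array, with 9 probe sets out of 24016 that are not controls, because BGN and PRELP have 2 each. The annotation gives the Entrez gene identifiers 280760 for DCN, 280847 for LUM, 280733 for BGN, 281168 for FMOD, 280884 for OGN, 507990 for ASPN and 282000 for PRELP. No probe set lists a member together with other genes. The array names 9155 genes in all by a single symbol.

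The tissue was Musculus longissimus dorsi, the long muscle along the back, taken from male cattle (steers) of 2 breeds: Japanese Black, whose meat is marbled with fat, and Holstein, a dairy breed. There were 3 steers of each breed and 1 array per steer. Every steer received an energy-rich feed; the age of the animals is not stated in the labels. The study's comparison is therefore between breeds on 1 kind of feed; animals on another feed were not analysed here. The samples are whole muscle, so fewer cells of a type and less RNA per cell cannot be told apart.

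Each of these proteins carries a curved domain of leucine-rich repeats that binds collagen, and most carry glycosaminoglycan or sulphated sugar chains. By binding the surface of collagen fibrils they set how fibrils assemble and how thick they become, and several also hold growth factors of the TGF-beta family or signal through cell receptors. In muscle they belong to the connective tissue around fibres and fascicles, where fibroblasts are a main source. They are commonly grouped into classes: decorin, biglycan and asporin in class I, lumican, fibromodulin and PRELP in class II, and osteoglycin in class III.

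The arrays were of similar overall brightness, with median signals between 48.5 and 54.7 intensity units; Japanese Black 3 had an upper quartile of 205, and the other arrays lay between 172 and 181. The 8 muscle fibre markers measured, among them the skeletal actin gene ACTA1 and the creatine kinase gene CKM, had mean signals between 10524 and 15518, so markers of the labelled tissue were bright. With 3 arrays per breed the precision of each value is limited. A difference between breeds is the mean log2(signal + 16) of Japanese Black less that of Holstein; adding 16 makes differences of dim probe sets look smaller. They come from limma fitted to all 18012 probe sets left after the dimmest 25% were removed, with Benjamini-Hochberg adjustment over all of them and a threshold of 0.05.

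The 7 genes did not share a direction between the breeds. At the brightest probe set of each gene, DCN, BGN, OGN and ASPN had higher means in Japanese Black on the log2 scale and LUM, FMOD and PRELP higher means in Holstein. Over all probe sets tested 51.0% had a difference above 0. The differences ran from -0.44 for PRELP to 0.52 for ASPN, with a median of 0.11, against a median of 0.01 over all probe sets tested. Of the 9 probe sets 0 passed the threshold in limma, where 0.0167% of all probe sets tested passed (0.0111% higher and 0.00555% lower in Japanese Black), and 0 passed with the plain t statistic. At an unadjusted p under 0.05 there was 1, OGN, or 1 of 9 where 12.6% of all probe sets reached it. The animals of the breeds did not overlap at 2 of the 9, OGN and the dimmer PRELP probe set, where the share over all probe sets was 19.8%. These shares leave the family near the background of the table.

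**Figure D1:**
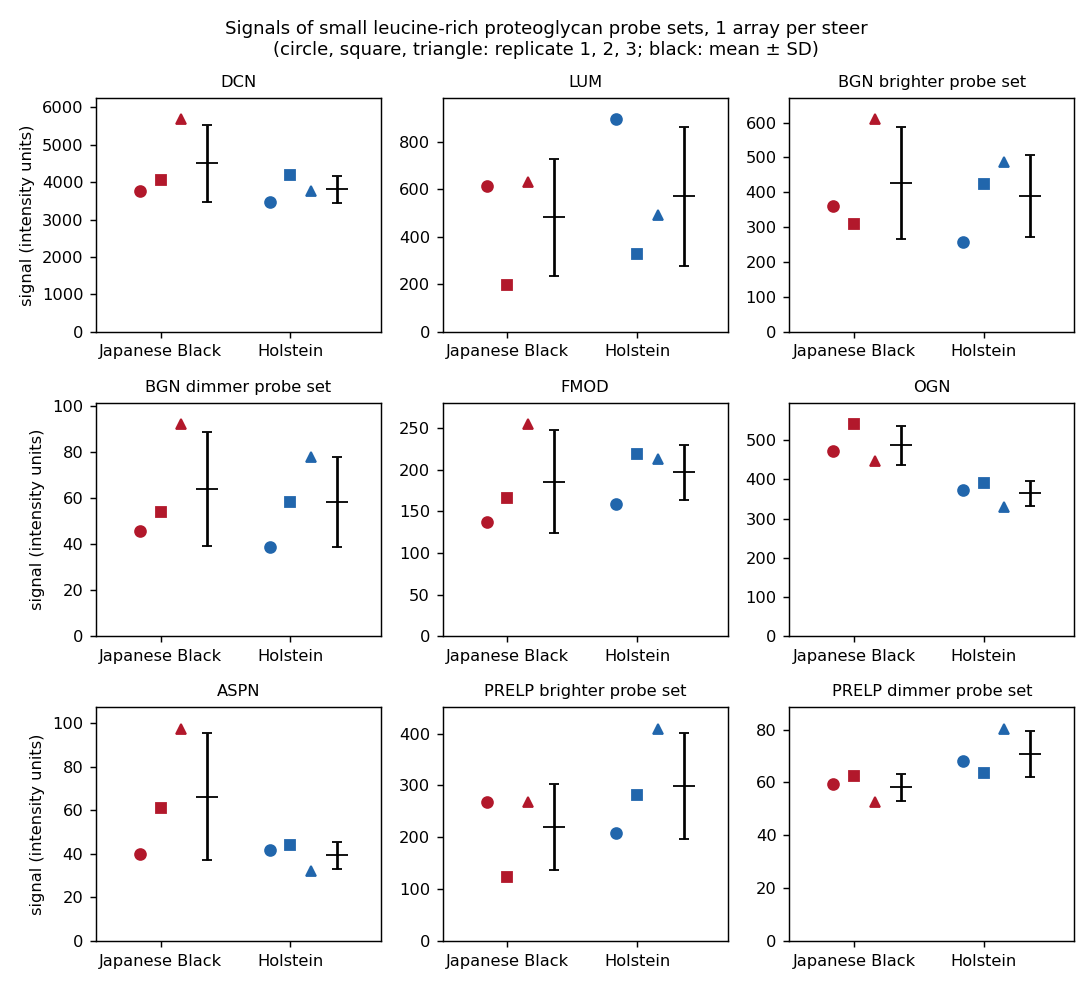
Signal in intensity units (vertical axis, from 0) of each of the 9 probe sets in the 3 Japanese Black and 3 Holstein steers (horizontal axis), with 1 symbol per array and the mean ± SD of each breed in black. OGN is the gene whose 3 Japanese Black animals all lie above the 3 Holstein animals, while LUM spreads from 197 to 894 without regard to breed.

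Decorin, a class I proteoglycan with a single glycosaminoglycan chain that binds collagen fibrils and TGF-beta, differed between the breeds by less than the spread between animals. The DCN signal was 3767, 4067 and 5678 in Japanese Black 1, 2 and 3 and 3463, 4191 and 3774 in Holstein 1, 2 and 3. Japanese Black 3 stood above the other 5 animals, which overlapped between the breeds. The means were 4504 ± 1028 (SD, n = 3) and 3810 ± 365 (SD, n = 3). The log2 difference was 0.22 (SE 0.17, 95% interval -0.16 to 0.60, adjusted p 0.583 in limma), a 1.17-fold difference on that scale. Without Japanese Black 3 it was 0.04.

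Biglycan is the closest relative of decorin, usually carries a pair of glycosaminoglycan chains, and can act as a danger signal for toll-like receptors when released from the matrix. At the brighter of its probe sets the BGN signal was 360, 309 and 609 in Japanese Black 1, 2 and 3 and 258, 424 and 486 in Holstein 1, 2 and 3. Japanese Black 3 was the highest and Holstein 1 the lowest, and the breeds overlapped. The means were 426 ± 160 and 389 ± 118 (SD, n = 3 each). The log2 difference was 0.11 (SE 0.30, 95% interval -0.56 to 0.79, adjusted p 0.891 in limma). It was -0.17 without Japanese Black 3 and -0.15 without Holstein 1, so its direction rested on single animals. The dimmer probe set put the animals in the same order, except that Japanese Black 1 and 2 changed places. It read 45.5, 53.9 and 92.0 in Japanese Black and 38.8, 58.3 and 77.8 in Holstein, a log2 difference of 0.09 (SE 0.27, adjusted p 0.899 in limma). Its name carries the manufacturer's suffix for probes that may also bind other transcripts, yet the 2 probe sets followed each other across the 6 arrays, with Pearson's r = 0.94 (exact permutation p = 0.00833) and Spearman's rho = 0.94 (exact permutation p = 0.0167). The Pearson r was 0.77 without Japanese Black 3 and Holstein 1, the 2 arrays farthest from the median of the brighter probe set.

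Asporin, the class I member with an aspartate-rich start and generally no glycosaminoglycan chain, binds collagen and TGF-beta. It had the largest difference of the 7 genes, from a dim probe set. The ASPN signal was 40.0, 61.1 and 97.5 in Japanese Black 1, 2 and 3 and 41.7, 43.8 and 32.1 in Holstein 1, 2 and 3. The Holstein animals lay close together, whereas the Japanese Black animals were spread widely and Japanese Black 1 fell among the Holstein values. The means were 66.2 ± 29.1 and 39.2 ± 6.26 (SD, n = 3 each). The log2 difference of 0.52 (SE 0.25, 95% interval -0.05 to 1.09) did not pass (adjusted p 0.428 in limma). Without Japanese Black 3 it was 0.26.

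Lumican, a class II member that carries keratan sulphate in some tissues and limits fibril thickness, varied most between animals. The LUM signal was 616, 197 and 632 in Japanese Black 1, 2 and 3 and 894, 326 and 492 in Holstein 1, 2 and 3. Each breed held high and low animals, with a 4.54-fold range over the 6 arrays from Japanese Black 2 to Holstein 1. The standard deviation within breeds was 0.82 on the log2 scale, wider than that of 98.7% of the probe sets tested. The means of 481 ± 246 and 570 ± 292 (SD, n = 3 each) gave a log2 difference of -0.29 (SE 0.47, 95% interval -1.35 to 0.78, adjusted p 0.812 in limma). That interval includes differences of more than 1 log2 unit toward Holstein. The difference was 0.24 without Japanese Black 2 and 0.09 without Holstein 1.

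Fibromodulin, a class II member that binds collagen near the lumican site and takes part in collagen cross-linking, had one of the smaller differences. The FMOD signal was 137, 166 and 255 in Japanese Black 1, 2 and 3 and 159, 219 and 213 in Holstein 1, 2 and 3. The lowest and the highest of the 6 animals were both Japanese Black. The means were 186 ± 61.5 and 197 ± 32.7 (SD, n = 3 each), and the log2 difference was -0.11 (SE 0.24, 95% interval -0.65 to 0.43, adjusted p 0.866 in limma). Without Japanese Black 1 the difference was 0.07, and without Japanese Black 3 it was -0.34.

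PRELP, a class II member whose start is rich in arginine and proline and binds heparan sulphate, links basement membranes to collagen. Its brighter probe set read 267, 124 and 268 in Japanese Black 1, 2 and 3 and 207, 282 and 410 in Holstein 1, 2 and 3. Japanese Black 2 was the lowest and Holstein 3 the highest, with the other animals in between. The means were 220 ± 82.8 and 300 ± 102 (SD, n = 3 each), and the log2 difference was -0.44 (SE 0.32, 95% interval -1.18 to 0.29, adjusted p 0.572 in limma). Without Japanese Black 2 it was -0.10 and without Holstein 3 it was -0.20.

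The dimmer PRELP probe set read 59.4, 62.6 and 52.6 in Japanese Black 1, 2 and 3 and 68.2, 63.4 and 80.4 in Holstein 1, 2 and 3. All 3 Japanese Black animals were below the 3 Holstein animals, with a gap of less than 1 intensity unit between Japanese Black 2 and Holstein 2. The log2 difference was -0.22 (SE 0.16, 95% interval -0.58 to 0.14, adjusted p 0.563 in limma). Both PRELP probe sets were thus lower in Japanese Black by their means, but they did not order the animals alike. Japanese Black 2 was the lowest animal at the brighter probe set and the highest of its breed at the dimmer. Across the 6 arrays Pearson's r was 0.36 (exact permutation p = 0.479) and Spearman's rho 0.31 (exact permutation p = 0.564), and r was -0.61 without Japanese Black 2 and Holstein 3.

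Osteoglycin, also called mimecan, is the class III member and occurs in the matrix of muscle, bone and vessels. The OGN signal was 473, 541 and 446 in Japanese Black 1, 2 and 3 and 373, 390 and 330 in Holstein 1, 2 and 3. All 3 Japanese Black animals were above all 3 Holstein animals, and both breeds were narrow, with coefficients of variation of 10.1% and 8.54%. The means were 487 ± 49.0 and 364 ± 31.1 (SD, n = 3 each). The log2 difference was 0.40 (SE 0.16, 95% interval 0.04 to 0.76), a 1.32-fold difference on that scale. It had an unadjusted p of 0.0328 and did not pass (adjusted p 0.373 in limma). Leaving out each animal in turn gave differences between 0.33 and 0.46. Unlike DCN, BGN, FMOD and ASPN, OGN was not highest in Japanese Black 3, and the value without that animal was 0.46.

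**Figure D2:**
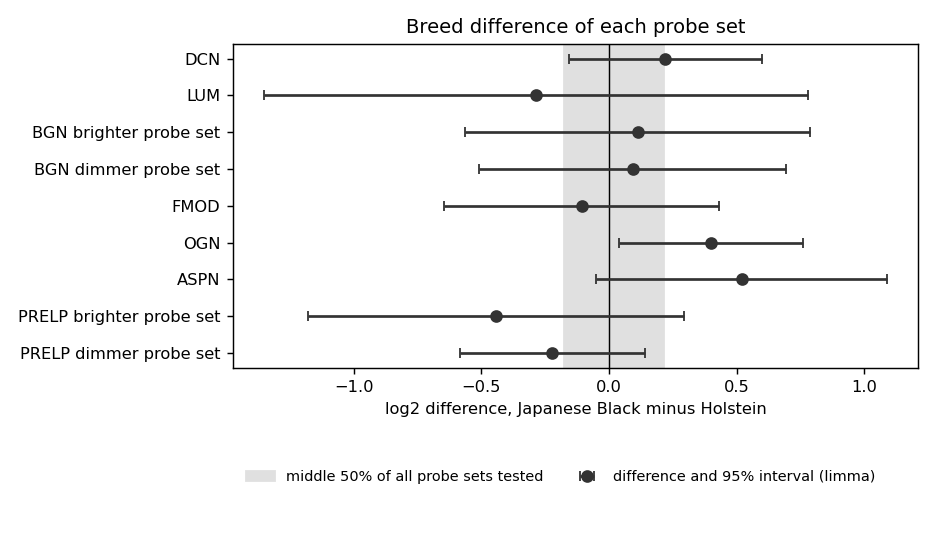
Log2 difference between the breeds (horizontal axis, Japanese Black minus Holstein) of the 9 probe sets (vertical axis), with limma's 95% interval as bars; the grey band holds the middle 50% of the differences of all probe sets tested, from -0.18 to 0.21. The interval of OGN lies above 0 before adjustment, from 0.04 to 0.76, and the interval of LUM is the widest.

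For 5 of the 7 genes the standard deviation within breeds was larger than the difference between them on the log2 scale; OGN and ASPN were the exceptions. The median standard deviation within breeds was 0.38 on the log2 scale over the 7, against 0.23 over all probe sets tested. Japanese Black 3 was above the mean of all 7 genes and was the highest array for 4 of them, DCN, BGN, FMOD and ASPN. Over all probe sets tested it was the highest array for 31.4%, and it is also the array with the higher upper quartile. After quantile normalization, which gives all arrays the same distribution, it was above the mean for 5 genes and highest for 3. Its mean deviation over the 7 genes was 0.41 log2 units before and 0.26 after that step. Japanese Black 2 had the lowest mean deviation, -0.29, through LUM and PRELP, while it was the highest array for OGN.

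**Figure D3:**
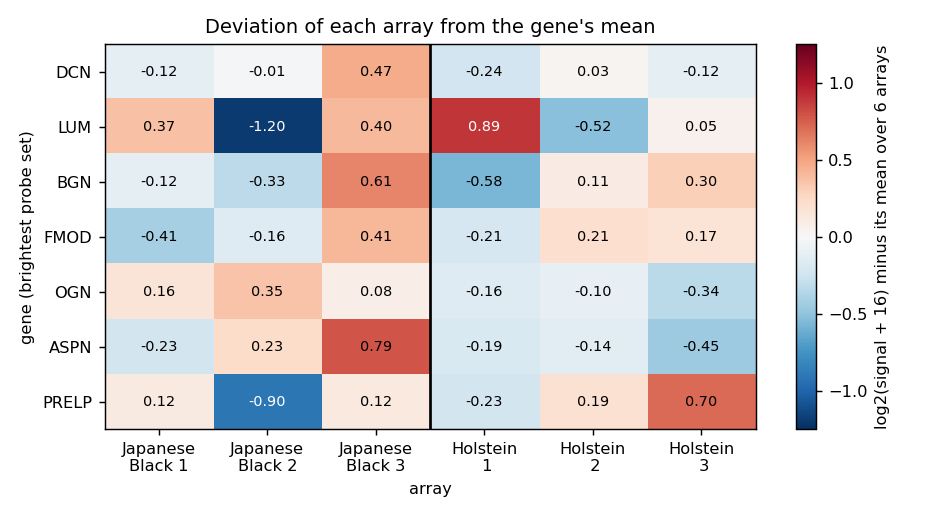
Each cell is the log2(signal + 16) of 1 gene at its brightest probe set (vertical axis) in 1 array (horizontal axis) minus the gene's mean over the 6 arrays, in log2 units; red is above and blue below the mean. The column of Japanese Black 3 is above the mean for all 7 genes, and the darkest blue cells are LUM and PRELP in Japanese Black 2, at -1.20 and -0.90.

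Relations among the genes were tested for 21 pairs across the 6 arrays, together with the pairs of probe sets of BGN and of PRELP, 23 relations in all. With Benjamini-Hochberg adjustment over the 23, 0 passed 0.05, and the lowest adjusted p for Pearson's r was 0.192. The highest coefficients joined genes that were all high in Japanese Black 3. DCN and ASPN had Pearson's r = 0.89 (exact permutation p = 0.0361, adjusted 0.261) and Spearman's rho = 0.71 (exact permutation p = 0.136, adjusted 0.522). BGN and FMOD had Pearson's r = 0.82 (exact permutation p = 0.0458, adjusted 0.261) and Spearman's rho = 0.77 (exact permutation p = 0.103, adjusted 0.522). The 2 arrays farthest from the median of the first gene named were Japanese Black 3 and Holstein 1 for both pairs. Without them the r was 0.64 for DCN and ASPN and 0.72 for BGN and FMOD. DCN and BGN had Pearson's r = 0.77 (exact permutation p = 0.0667, adjusted 0.261), and -0.26 without the same arrays. DCN and FMOD had Pearson's r = 0.74, and 0.40 without those arrays. Their Spearman's rho of 0.89 was the highest between genes (exact permutation p = 0.0333, adjusted 0.383). OGN and PRELP ran opposite to each other, with Pearson's r = -0.77 (exact permutation p = 0.0611, adjusted 0.261) and Spearman's rho = -0.66 (exact permutation p = 0.175, adjusted 0.575). That relation rested on Japanese Black 2 and Holstein 3, without which r was 0.55. All these coefficients pool the 2 breeds, so differences between breed means enter them. With breed means removed, r was 0.86 for DCN and ASPN, 0.87 for BGN and FMOD and 0.81 for DCN and BGN. It was 0.97 for DCN and FMOD and -0.87 for OGN and PRELP. These values with breed means removed were not tested.

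Several of these genes are neighbours in the genome. In the RefSeq gene order of the cattle assembly, LUM lies directly beside DCN, with KERA next, FMOD directly beside PRELP, and OGN beside the osteomodulin gene OMD, which is followed by ASPN. None of these 3 pairs of near neighbours had an adjusted p under 0.05 across the 6 arrays. For DCN and LUM, Pearson's r was -0.09 (exact permutation p = 0.850) and Spearman's rho -0.37 (exact permutation p = 0.497). For FMOD and PRELP they were 0.43 (exact permutation p = 0.450) and 0.54 (exact permutation p = 0.297), and for OGN and ASPN 0.55 (exact permutation p = 0.258) and 0.54 (exact permutation p = 0.297). The adjusted p of the 3 Pearson coefficients lay between 0.733 and 0.9496. A further r left out the 2 arrays farthest from the median of the first gene named. For DCN and LUM it was -0.78, without Japanese Black 3 and Holstein 1. For FMOD and PRELP it was 0.79, without Japanese Black 1 and Japanese Black 3. For OGN and ASPN it was 0.33, without Japanese Black 2 and Holstein 3. With breed means removed over all 6 arrays, r was 0.02, 0.39 and -0.04 for the 3 pairs in that order.

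Among 8043 other named genes, those with the pattern most like each member over the 6 arrays were the following, given as a description with Pearson's r on the log2 scale. DCN was most like COMMD5, ERMARD and RPTOR, with r between 0.99 and 0.997. BGN was most like ARRB2, which encodes a beta-arrestin, TANGO2 and CST3, which encodes the protease inhibitor cystatin C and had r = 0.99. ASPN was most like INTS12, DENND10 and TP53BP1, with r between 0.98 and 0.99. LUM was most like ARPC2, an actin-nucleating subunit, ETFA, an electron transfer flavoprotein subunit, and CCDC8, with r between 0.97 and 0.98. FMOD was most like DPM2, C23H6orf47 and AP4M1, PRELP most like LOC511617, GCN1 and CHID1, and OGN most like TAB2, RINT1 and YY1, with r between 0.99 and 0.999. With only 6 arrays such values are common: between 53 and 212 genes had r above 0.9 with each member.

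The rest of the family was less well measured. Of 11 other small leucine-rich proteoglycan genes listed, 6 were on the array and 2 were bright enough to be tested. Keratocan, KERA, a class II gene known from cornea, read 26.8, 103 and 103 in Japanese Black and 74.4, 88.3 and 60.9 in Holstein, a log2 difference of -0.09 (SE 0.37, adjusted p 0.936 in limma). Tsukushi, TSKU, read 73.9, 76.3 and 60.4 in Japanese Black and 95.3, 73.4 and 133 in Holstein, a log2 difference of -0.41 (SE 0.21, adjusted p 0.453 in limma). The breeds overlapped for both. OMD, EPYC, OPTC and CHAD were among the dimmest 25% and were not tested; the mean OMD signal was 14.5 in each breed.

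Of the genes that make, bind or process these proteoglycans, 113 were listed in 6 groups with the other family genes, 76 were on the array and 66 were tested. In limma 0 of the 66 passed, 2 had an unadjusted p under 0.05, and 0 passed with the plain t statistic, against the 0.0167% and 12.6% of all probe sets given above. The animals of the breeds did not overlap at 5 of the 66, where the share over all probe sets was 19.8%. Of 9 collagen genes that these proteins bind or accompany, 7 had lower means in Japanese Black, and the median difference was -0.36, or -0.22 without Holstein 3. COL3A1, a chain of the fine fibrils around muscle fibres, read 2079, 1551 and 3813 in Japanese Black and 4013, 4002 and 2942 in Holstein. Its log2 difference was -0.64 (SE 0.29, adjusted p 0.409 in limma), and Japanese Black 3 lay among the Holstein animals. The mean over the 2 probe sets of COL3A1 was only -0.44. COL2A1, a collagen known from cartilage, had a difference of -0.44 (SE 0.20, adjusted p 0.409 in limma).

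Enzymes that build the linkage region and the chondroitin or dermatan sulphate chains, the kind of chain carried by decorin and biglycan, had 4 of 13 genes higher and 9 lower, with a median of -0.05, which became 0.025 with Japanese Black 1 left out, -0.022 with Holstein 1 left out and -0.21 with Japanese Black 3 left out. CSGALNACT2, an enzyme that begins chondroitin chains, read 208, 159 and 216 in Japanese Black and 141, 102 and 106 in Holstein, with no overlap. Its log2 difference was 0.67 (SE 0.19, adjusted p 0.313 in limma). The sulphotransferase gene CHST7 had a difference of -0.41 (SE 0.22, adjusted p 0.455 in limma). The mean over the tested probe sets of CHST7 was -0.27. Enzymes of keratan sulphate, the chain known on lumican and fibromodulin, had 5 of 8 genes higher and a median of 0.01, which ranged from -0.074 to 0.088 when 1 animal was left out. The sulphotransferase gene CHST1 had a difference of -0.31 (SE 0.19) and the sialyltransferase gene ST3GAL2 one of 0.22 (SE 0.19), with adjusted p of 0.506 and 0.620 in limma.

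Proteases and inhibitors had 3 of 14 genes higher and 11 lower, with a median of -0.23. That median was -0.087 without Holstein 3, -0.090 without Japanese Black 1 and -0.37 without Japanese Black 3. PCOLCE, an enhancer of the enzyme that trims procollagen, had a difference of -0.65 (SE 0.29, adjusted p 0.402 in limma). MMP3, a matrix metalloproteinase that can cut decorin, had a difference of -0.33 (SE 0.17, adjusted p 0.449 in limma) at a dim probe set. The mean over the tested probe sets of MMP3 was -0.21. Growth factors and receptors had 9 of 20 genes higher and 11 lower, with a median of -0.10, or -0.037 without Japanese Black 3 and -0.056 without Holstein 2. EGFR, the epidermal growth factor receptor, to which decorin binds, read 42.0, 65.9 and 45.9 in Japanese Black and 13.2, 37.6 and 16.6 in Holstein, with no overlap. Its log2 difference was 0.84 (SE 0.25, adjusted p 0.319 in limma). The EGFR signals of Holstein 1 and Holstein 3 were near the lower end of the signals tested. KDR, a receptor of vascular endothelial growth factor, read 16.7, 14.2 and 15.2 in Japanese Black and 26.3, 20.9 and 18.4 in Holstein, near the lower end of the signals tested and with no overlap. Its log2 difference was -0.27 (SE 0.15, adjusted p 0.476 in limma).

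**Figure D4:**
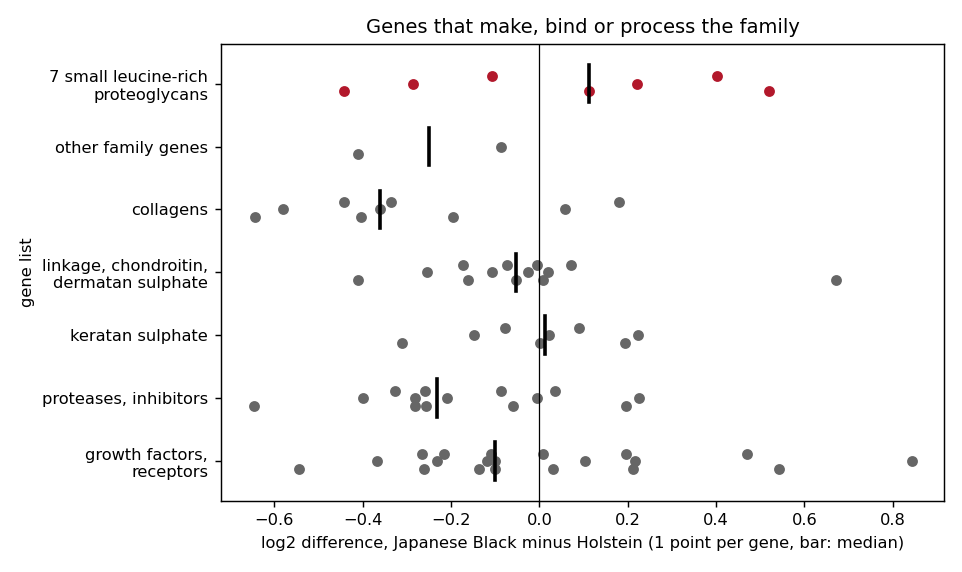
Log2 difference between the breeds (horizontal axis, Japanese Black minus Holstein) of every tested gene of each list (vertical axis), 1 point per gene at its brightest probe set, with the list's median as a black bar. The 7 proteoglycans in red spread on both sides of 0 around a median of 0.11, while 7 of the 9 collagens are below 0 with a median of -0.36.

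Because the collagens and several proteoglycans had means on opposite sides, each member was also expressed relative to COL1A1, COL1A2 and COL3A1, chains of the collagens of types I and III, by subtracting their mean log2 in the same array. This comparison was chosen after the values were seen. The reference includes COL3A1 and COL1A2, the collagen genes with the lowest differences at the brightest probe set, -0.64 and -0.58. It leaves out COL5A2 and COL12A1, whose differences there were 0.06 and 0.18. By the mean over the tested probe sets of a gene, COL3A1 had -0.44 and COL1A2 -0.64. On that measure COL2A1 and COL12A1, both outside the reference, had -0.45 and -0.01. All 7 differences were then above 0, from 0.08 for PRELP to 1.04 for ASPN, with a median of 0.63. So were 96.3% of all probe sets tested, whose median was 0.53, since the 3 collagens had lower means in Japanese Black. DCN, BGN and ASPN did not overlap between the breeds on this scale, 3 of 7 genes, where 22.2% of all probe sets were higher in Japanese Black without overlap. For DCN the relative level was 2.95, 3.38 and 2.94 in Japanese Black and 1.94, 2.79 and 2.32 in Holstein, a difference of 0.74. For BGN the difference was 0.63, and 0.23 without Holstein 1. The exact two-sided permutation p was 0.10 for each of the 3, the smallest that 3 animals against 3 allow, and 0.233 after adjustment over the 7 genes. OGN had a difference of 0.92 with an exact permutation p of 0.20, because Japanese Black 3 lay below Holstein 2.

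Markers of cells that could contribute these transcripts were read in the same arrays. Fibroblast and progenitor markers, 12 of 12 on the array, had a summed signal of 6460 to 9813 in Japanese Black and 9085 to 11596 in Holstein, and 10 of 12 had lower means in Japanese Black. Within that list the breeds did not overlap at 2 of 12 markers, where the share over all probe sets was 19.8%. These were THY1, higher in all 3 Japanese Black animals, and CLEC3B, lower in all 3. Their log2 differences were 0.66 (SE 0.16) and -0.59 (SE 0.16), with adjusted p of 0.287 and 0.3004 in limma. DPT had the largest difference of the list, -0.70 (SE 0.24, adjusted p 0.346 in limma), and its breeds overlapped. Adipocyte markers, 8 of 10 on the array, summed to 3877, 4754 and 14777 in Japanese Black and 7583, 12579 and 2152 in Holstein. Smooth muscle and pericyte markers, 8 of 9 on the array, summed to 4527, 4242 and 13420 in Japanese Black and 5147, 9688 and 6000 in Holstein. Both lists were highest in Japanese Black 3, as were DCN, BGN, FMOD and ASPN. So were the sums of tendon cell, muscle fibre, and Schwann cell and nerve markers, and 31.4% of all probe sets tested. The fibroblast, endothelial and leukocyte sums were highest in Holstein 3, and the cartilage and bone sum in Holstein 1. In Japanese Black 3 FABP4 alone read 7635 and ACTA2 alone 7858. There THBS4 made up 2853 of the tendon cell sum of 3315, and S100B 2739 of the Schwann cell and nerve sum of 2863. In that array TNC was also at its highest, at 310, but COMP was at its lowest, at 32.5. MBP and SOX10 were not highest there and had lower means in Japanese Black, with differences of -0.19 and -0.30. In Holstein 1 IBSP made up 6674 of the cartilage and bone sum of 7025. In the fibroblast, adipocyte and smooth muscle lists 0 markers were listed at 0 on any array. Of 5 tendon cell markers on the array 4 were tested, with 1 higher, 3 lower and a median difference of -0.18. THBS4 had a difference of 0.48, COMP -0.66, TNC -0.27 and KERA -0.09, with adjusted p between 0.371 and 0.936 in limma. The mean over the 2 probe sets of COMP was only -0.23. The other tendon cell marker, TNMD, was among the dimmest 25% and was not tested. The part of these cells in the proteoglycan values was not tested.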

How the data were processed

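Total RNA of 6 muscle samples was labelled with biotin and hybridised to Affymetrix cattle arrays, per the labels' protocols. For each array the authors deposited 1 intensity per probe set, on a linear scale. GCOS 1.1.1 and Affymetrix Expression Console 1.1 are named in the submitters' processing notes; how probes were summarised and scaled is not given in the sources used here. Breed came from the labels, and replicate numbers only name animals.

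The 112 control probe sets were removed. An offset of 16 was added before log2, and the dimmest 25% by mean were left out, leaving 18012. limma 3.58.1 in R 4.3.3 (lmFit, eBayes with an intensity trend) compared the breeds, two-sided and unpaired. The submitters' design text names a paired t-test, but the labels tie no Holstein animal to a Japanese Black one; a paired fit could give other standard errors and p-values. The script was tested on simulated data, but how often differences as small as those of the members would be called is not given here. Correlations and relative levels were tested by exact permutation of the arrays.

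Gene names came from the platform annotation. A gene was represented by its brightest probe set. All probe sets of members were given; of each list the 2 genes of smallest p were named, and per member the 3 genes of highest Pearson correlation. THY1, CLEC3B and DPT were chosen after their values were seen. Members and lists were chosen with earlier results of these data known. No coordinates are given because no build is named for the table, and sequences were not used here. Alternatives changed the offset, filter, scaling, variance model and animals. Figures used matplotlib 3.10.9.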

Additional observations from a re-analysis of the deposited data

How the results depend on the processing

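Member probe sets called in limma numbered 0 under all 15 alternatives (offsets of 1 and 64, no filter or a 50% filter, scaling by quantiles or by the median, no intensity trend, array weights, the plain t statistic and each animal left out), and the smallest adjusted p was 0.328, for OGN with array weights. DCN, OGN, ASPN and both PRELP probe sets kept their direction under every alternative that tested them; ASPN was not tested with the dimmer 50% left out. Leaving out 1 animal at a time moved the difference from -0.17 to 0.31 for the brighter BGN probe set, -0.15 to 0.28 for the dimmer one, -0.34 to 0.071 for FMOD and -0.62 to 0.24 for LUM. The median over the 7 genes ranged from -0.17, without Japanese Black 3, to 0.28, and that of the chondroitin and dermatan sulphate enzymes from -0.21, also without Japanese Black 3, to 0.025. The median of growth factors and receptors was 0.20 with the dimmer 50% left out, where fewer of its genes were tested. Relative to the 3 collagens, the leave-one-out range was -0.069 to 0.56 for LUM and -0.29 to 0.31 for PRELP, and the other 5 genes stayed above 0, BGN between 0.23 and 0.86 and FMOD between 0.14 and 0.64, each lowest without Holstein 1. Of all probe sets tested, 3 passed; 0 did with an offset of 1, with the dimmer 50% left out and with the plain t statistic, 10 with array weights, and 0 to 15 when 1 animal was left out. Without Holstein 2 there were 15, without Holstein 3 there was 1, and with any 1 Japanese Black animal left out there were 0. The submitters' design text names a paired t-test. No paired analysis was possible because the labels tie no Holstein animal to a Japanese Black one. Of the member probe sets that of LUM had the largest standard error, 0.47.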
